A study of Mus musculus with 3 samples.

Results

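The miR-30 family of microRNAs (miRNAs) was described in small RNA of HL-1, a cardiomyocyte line of the mouse that still beats in culture. Its members were the 6 mouse hairpins Mir30a, Mir30b, Mir30c-1, Mir30c-2, Mir30d and Mir30e, of 1137 mouse hairpins searched. A read was counted if its insert, the part before the 3' adapter, was 18 to 25 nt long and matched a hairpin exactly or with 1 to 2 untemplated 3' bases. The 6 hairpins have 12 arms. Mir30c-1 and Mir30c-2 give the same 5p sequence, so 11 distinct mature miRNAs were counted, and all 11 reached the minimum of 50 reads summed over both libraries. No insert was found that told a miR-30c-5p read of Mir30c-1 from one of Mir30c-2.

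The cells had been transfected with siRNA by lipofection (9 µl of a 20 µM stock) and harvested after 48 h. The study used a pair of siRNAs against Srf, the gene of serum response factor, which drives transcription of many muscle genes, and an unspecific siRNA. The 2 libraries used here are titled siSrf1 and siSrf2, with 1 library per group. A sample titled siNon was not analysed here. The siRNA entries of the samples go against these titles: the entry reads Srf si2 under the title siSrf1 and siNon under the title siSrf2. Groups follow the titles, and siSrf1 and siSrf2 below stand for the libraries labelled so. Small RNA reads hold no measure of Srf mRNA that could check a label, and reads of the transfected siRNAs were not examined here. No p-value was computed, since no group had a second library, and every interval given is a 95% interval that covers counting error only.

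miR-30 miRNAs are among the abundant miRNAs of heart muscle, where they are known to repress Ctgf, a gene of a secreted matrix protein. Each hairpin is cut to a short duplex, of which 1 arm is usually loaded into an Argonaute protein, and the seed, bases 2 to 8 from the 5' end, selects target mRNAs. The 5p and 3p arms of the family have different seeds and so belong to different target groups. Bases can be added to the 3' end of a mature miRNA after cutting by nucleotidyl transferases, and such bases are untemplated, that is, absent from the hairpin.

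The mature sequences are given from RefSeq (GRCm38.p6) with the seed in capitals, because the seed divides the arms into groups. RefSeq held 4 of the 6 hairpins, and miR-30b and miR-30d arms are named only.
miR-30a-5p: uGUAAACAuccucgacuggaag
miR-30c-5p: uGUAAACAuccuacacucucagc
miR-30e-5p: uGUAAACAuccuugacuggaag
miR-30a-3p: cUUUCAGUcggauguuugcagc
miR-30e-3p: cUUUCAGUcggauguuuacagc
miR-30c-1-3p: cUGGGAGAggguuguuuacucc
miR-30c-2-3p: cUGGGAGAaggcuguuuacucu

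All 5 distinct 5p arms share 1 seed. They held 82.2% of the family's reads in siSrf1 and 86.0% in siSrf2. The 3p arms of Mir30a, Mir30d and Mir30e share a second seed and held 16.9% in siSrf1 and 13.2% in siSrf2. Another seed is shared by the 3p arms of Mir30c-1 and Mir30c-2, with 0.749% in siSrf1 and 0.609% in siSrf2. miR-30b-3p has a seed of its own and held 0.147% in siSrf1 and 0.186% in siSrf2. The RefSeq sequences of miR-30a-5p and miR-30e-5p differ by C13T, written as DNA and counted from 1 at the 5' end with the miR-30a base first. Those of miR-30a-3p and miR-30e-3p differ by G18A, counted the same way.

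The hairpins form 3 pairs in the NCBIM37 genome. Mir30a (chr1:23279108-23279178, plus strand) and Mir30c-2 (chr1:23298540-23298623, plus strand) lie 19361 nt apart with no other gene annotated over them. Mir30c-1 (chr4:120442139-120442227, minus strand) and Mir30e (chr4:120445211-120445302, minus strand) lie 2983 nt apart in introns of Nfyc (chr4:120430043-120504177, minus strand), which encodes a subunit of the transcription factor NF-Y. Mir30b (chr15:68168977-68169072, minus strand) and Mir30d (chr15:68172770-68172851, minus strand) lie 3697 nt apart with no other gene annotated over them. No miR-30 insert with 10 reads or more matched the genome elsewhere.

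The libraries held 14911499 reads in siSrf1 and 14518157 in siSrf2, of which 5287620 in siSrf1 and 4603271 in siSrf2 were counted as miRNA. The cardiac muscle miRNAs miR-1a, miR-133a, miR-208 and miR-499 summed to 641120 RPM (reads per 1000000 miRNA reads) in siSrf1 and 531885 in siSrf2. Most of this sum was miR-1a-3p, and its direction was not that of every member. miR-133a-3p stood at 1167 RPM in siSrf1 and 2415 in siSrf2, and miR-499-5p at 13862 in siSrf1 and 13770 in siSrf2. The summed level of the marker lists for liver, neurons, epithelium (miR-141 at 0 in both libraries) and blood lay between 3.22 and 66.6 RPM in siSrf1 and between 1.74 and 74.1 in siSrf2. miR-126, an endothelial marker, stood at 591 RPM in siSrf1 and 515 in siSrf2. miR-143 and miR-145, markers of smooth muscle and fibroblasts, stood at 7591 RPM in siSrf1 and 10098.5 in siSrf2. Most of this sum was miR-143-3p, at 7037 RPM in siSrf1 and 8932 in siSrf2, and its members differed. miR-145-5p stood at 135 RPM in siSrf1 and 623 in siSrf2, and miR-145-3p at 24.4 in siSrf1 and 25.4 in siSrf2. The sum of miR-143 and miR-145 was higher in siSrf2 like miR-30, but so were 206 of the 257 miRNA arms with at least 50 reads. Whether the marker reads came from cells of these types was not tested, and neither was a part of such cells in the miR-30 ratios. miR-1a-3p alone took 62.6% of miRNA reads in siSrf1 and 51.5% in siSrf2, so its share moved with every level scaled to the miRNA total.

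The family had 53841 reads in siSrf1 and 70972 in siSrf2. This was 1.02% of miRNA reads in siSrf1 (Clopper-Pearson interval 1.01 to 1.03) and 1.54% in siSrf2 (1.53 to 1.55). The family total was therefore lower in siSrf1, with a log2 ratio of siSrf1 minus siSrf2 of -0.60 (exact binomial interval -0.61 to -0.58), and siSrf2 was 1.51-fold higher. Left as a share of miRNA reads without miR-1a-3p, the family took 2.72% in siSrf1 and 3.18% in siSrf2, a log2 ratio of -0.23. With TMM factors, which scale by the trimmed mean of the ratios of all arms, the log2 ratio was -0.11. TMM moved the median of all 257 measured arms to 0.08, against -0.41 with the miRNA total.

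By level, miR-30d-5p stood first and miR-30a-5p second, at ranks 18 and 23 of the measured arms. The next places were taken by 3p arms, miR-30a-3p at rank 43 and miR-30e-3p at rank 46, before miR-30e-5p at rank 52 and miR-30c-5p at rank 70. miR-30c-2-3p, at rank 111, and miR-30b-5p, at rank 118, changed places between the libraries and had overlapping intervals in siSrf2. miR-30b-3p, miR-30c-1-3p and miR-30d-3p stood at ranks 157, 180 and 254.

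**Figure D1:**
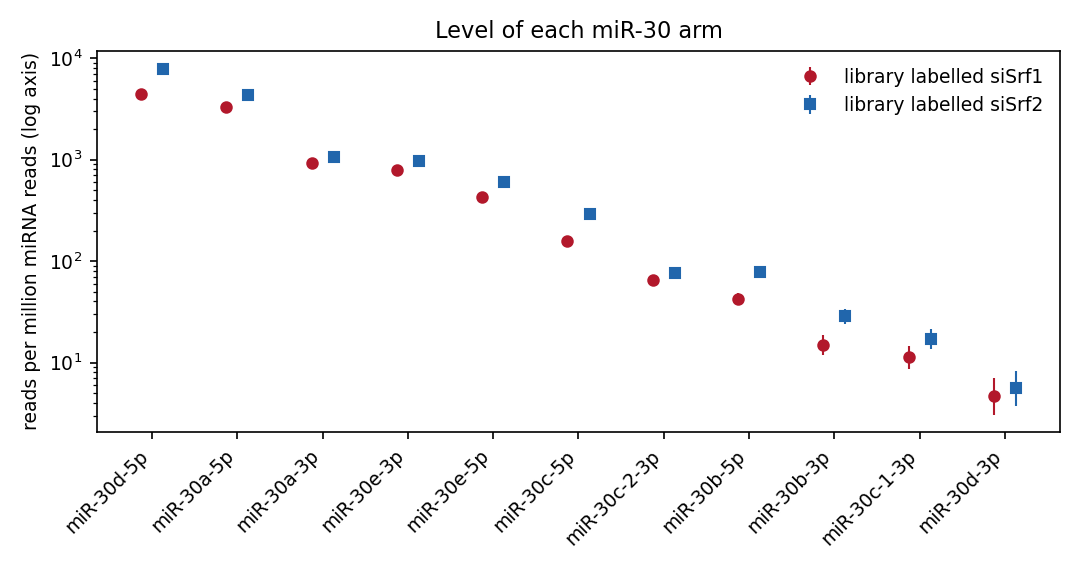
Level of each miR-30 arm in RPM (log axis) in the libraries labelled siSrf1 (circles) and siSrf2 (squares), with bars for Clopper-Pearson 95% intervals. The arms run from miR-30d-5p at 4441 in siSrf1 and 7911 in siSrf2 to miR-30d-3p at 4.73 in siSrf1 and 5.65 in siSrf2.

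Among the 5p arms, miR-30d-5p had 23483 reads in siSrf1 and 36415 in siSrf2, which was 4441 RPM in siSrf1 and 7911 in siSrf2. It made up 43.6% of the family in siSrf1 and 51.3% in siSrf2, and its log2 ratio was -0.83 (-0.86 to -0.81). miR-30a-5p had 17418 reads in siSrf1 and 20138 in siSrf2, or 3294 RPM in siSrf1 and 4375 in siSrf2. Its log2 ratio was -0.41 (-0.44 to -0.38), close to the median of all measured arms, and with TMM factors it turned to 0.08. These 2 arms held most of the family's reads, and miR-30d-5p had the lower ratio of the pair, an order that scaling cannot change.

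miR-30e-5p had 2288 reads in siSrf1 and 2754 in siSrf2, with a log2 ratio of -0.47 (-0.55 to -0.39) that turned to 0.03 with TMM factors. miR-30c-5p had 843 reads in siSrf1 and 1352.5 in siSrf2, where an insert that fitted several arms counts as a fraction, and its log2 ratio was -0.88 (-1.01 to -0.76). miR-30b-5p had 225 reads in siSrf1 and 357.5 in siSrf2, with a log2 ratio of -0.87 (-1.11 to -0.62). Over all counted lengths, miR-30b-5p, miR-30c-5p and miR-30d-5p thus had lower ratios than miR-30a-5p and miR-30e-5p. With inserts of 22 nt only, scaled to the miRNA reads of 22 nt, the values could not settle this grouping. There the log2 ratio of miR-30c-5p was -0.10 (-0.84 to 0.65), from 35 reads in siSrf1 and 31 in siSrf2. miR-30a-5p stood at -0.21 and miR-30e-5p at -0.36 (-0.73 to 0.02). Lower values were held by miR-30d-5p, at -0.52 (-0.60 to -0.44), and miR-30b-5p, at -0.88, but the intervals of miR-30d-5p and miR-30e-5p overlap.

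Differences between arms do not depend on the scaling, but they do depend on the insert lengths counted, and those given next are over all counted lengths. The log2 ratio of miR-30d-5p minus that of miR-30a-5p was -0.42 (-0.46 to -0.39), and minus that of miR-30e-5p it was -0.37 (-0.45 to -0.28). The log2 ratio of miR-30c-5p minus that of miR-30e-5p was -0.41 (-0.56 to -0.27), with Mir30e and Mir30c-1 as neighbours in Nfyc. For the other pairs set side by side, miR-30a-5p minus miR-30e-5p was 0.06 (-0.03 to 0.14), miR-30b-5p minus miR-30d-5p was -0.03 (-0.28 to 0.21), and miR-30c-5p minus miR-30d-5p was -0.05 (-0.18 to 0.08). These 3 intervals include 0, and they do not show that the ratios are equal.

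Among the 3p arms, miR-30a-3p had 4937 reads in siSrf1 and 4886.5 in siSrf2, or 934 RPM in siSrf1 and 1062 in siSrf2. Its log2 ratio was -0.19 (-0.24 to -0.13), and 0.31 with TMM factors. miR-30e-3p had 4140 reads in siSrf1 and 4478.5 in siSrf2, with a log2 ratio of -0.31 (-0.37 to -0.25), and 0.18 with TMM factors. Over all counted lengths, the log2 ratio of the 5p arm minus that of the 3p arm was -0.22 (-0.29 to -0.16) for Mir30a and -0.15 (-0.25 to -0.05) for Mir30e. With inserts of 22 nt only, scaled to the miRNA reads of 22 nt, the 5p value lay above the 3p value in both hairpins. The intervals overlapped. The log2 ratio was -0.21 (-0.28 to -0.14) for miR-30a-5p and -0.28 (-0.36 to -0.20) for miR-30a-3p. It was -0.36 (-0.73 to 0.02) for miR-30e-5p and -0.46 (-0.54 to -0.38) for miR-30e-3p. The miR-30e-5p value rested on 117 reads in siSrf1 and 124 in siSrf2. The order of the arms at 22 nt was thus not settled.

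The other 3p arms were rare. miR-30c-2-3p had 343 reads in siSrf1 and 353 in siSrf2, and miR-30c-1-3p had 60 in siSrf1 and 79 in siSrf2. miR-30b-3p, with 79 reads in siSrf1 and 132 in siSrf2, had the family's lowest ratio, -0.94, with a wide interval of -1.36 to -0.53. miR-30d-3p had 25 reads in siSrf1 and 26 in siSrf2, and its interval of -1.11 to 0.59 included 0, so no difference was detectable at this depth.

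An arm was called if its levels were 2-fold apart or more and its interval did not reach 0. No miR-30 arm, 0 of 11, was called in either direction, while 24.5% of the 257 measured arms were called as higher in siSrf2 and 0% as higher in siSrf1. With TMM factors 14% were called as higher in siSrf2 and 1.17% as higher in siSrf1, and the miR-30 count was again 0 of 11 in both directions. Over all measured arms the calls were 63 higher in siSrf2 and 0 higher in siSrf1 with the miRNA total, and 34 higher in siSrf2 and 5 higher in siSrf1 with median-of-ratios factors. The median ratio of the miR-30 arms was -0.47, against -0.41 over all measured arms, and 11 of 11 miR-30 arms lay below 0, as did 206 of all 257. With TMM factors the medians were 0.03 for miR-30 and 0.08 for all arms, and 6 of the 11 turned above 0. The 5p arms had a median ratio of -0.83 and the 3p arms of -0.28 with the miRNA total.

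**Figure D2:**
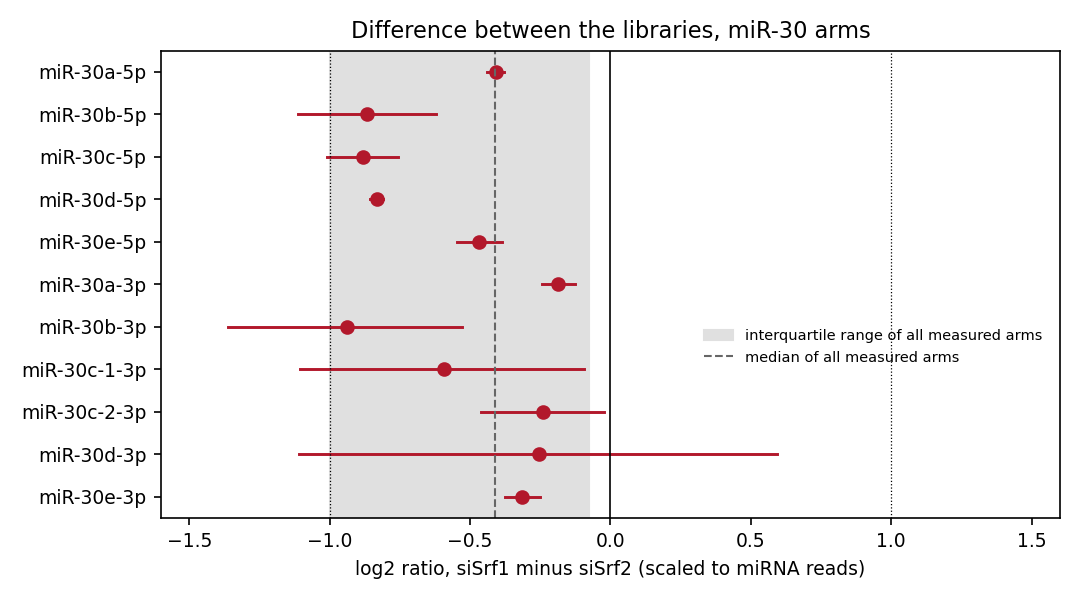
Log2 ratio of siSrf1 minus siSrf2 for each miR-30 arm, scaled to miRNA reads, with bars for exact binomial 95% intervals, the dashed line at the median of all measured arms (-0.41), grey for their interquartile range and dotted lines at a 2-fold difference. All 11 points lie below 0 and short of 2-fold; with TMM factors miR-30a-5p, miR-30e-5p, miR-30a-3p, miR-30c-2-3p, miR-30d-3p and miR-30e-3p lie above 0.

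The choice of arm differed between the hairpins more than between the libraries. Mir30d reads came almost wholly from the 5p arm, 99.9% in siSrf1 and 99.9% in siSrf2. Mir30a gave 77.9% from the 5p arm in siSrf1 and 80.5% in siSrf2, and Mir30b 74.0% in siSrf1 and 73.1% in siSrf2. Among the hairpins whose 5p reads could be told apart, only Mir30e had more 3p than 5p reads. Its 5p share was 35.6% in siSrf1 (34.4 to 36.8) and 38.1% in siSrf2 (37.0 to 39.2). The 5p share of Mir30c-1 or Mir30c-2 alone could not be measured, since their 5p reads are the same. For Mir30c-1 and Mir30c-2 together the 5p share was 67.7% in siSrf1 (65.0 to 70.2) and 75.8% in siSrf2 (73.7 to 77.8), the widest gap between the libraries.

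**Figure D3:**
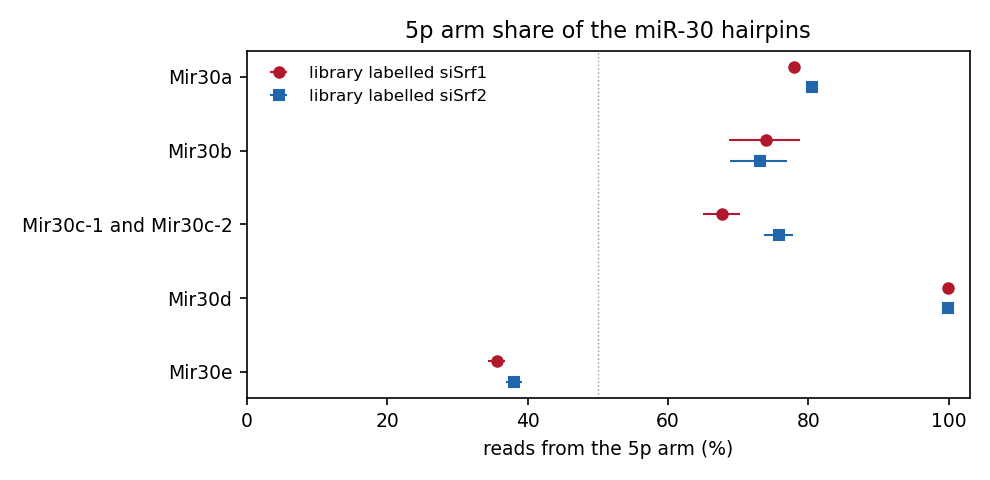
Share of each hairpin's reads that came from the 5p arm (%) in the libraries labelled siSrf1 (circles) and siSrf2 (squares), with Clopper-Pearson 95% intervals. Mir30d sits at 99.9% and Mir30e below the dotted line at an equal split, at 35.6% in siSrf1 and 38.1% in siSrf2.

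The 5p arms were mostly longer than their RefSeq entries. The most frequent insert of miR-30a-5p, miR-30c-5p, miR-30d-5p and miR-30e-5p was 24 nt long, while RefSeq gives 22 nt for miR-30a-5p and miR-30e-5p and 23 nt for miR-30c-5p. The 24-nt forms are shown as sequenced, in DNA letters, with capitals for the bases of the hairpin that follow the RefSeq 3' end.
miR-30a-5p, 24 nt: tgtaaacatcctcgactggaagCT
miR-30c-5p, 24 nt: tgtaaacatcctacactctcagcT
miR-30e-5p, 24 nt: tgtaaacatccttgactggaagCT

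The 24-nt form of miR-30a-5p had 5679 reads in siSrf1 and 7787 in siSrf2, which was 32.6% of the arm in siSrf1 and 38.7% in siSrf2. That of miR-30c-5p had 563 reads in siSrf1 and 964 in siSrf2, and took 66.8% of the arm in siSrf1 and 71.3% in siSrf2. That of miR-30e-5p had 1407 reads in siSrf1 and 1850 in siSrf2, and took 61.5% of the arm in siSrf1 and 67.2% in siSrf2. Inserts of 24 nt made up 57.6% of miR-30d-5p in siSrf1 and 64.5% in siSrf2, and miR-30b-5p was mostly 22 nt long, 85.3% in siSrf1 and 81.7% in siSrf2. Of the 123 arms with at least 500 reads, miR-30c-5p had the largest share of inserts of 24 nt or more, a mean of 82.2% over the libraries. miR-30e-5p stood at rank 4 with 75.2%, miR-30d-5p at rank 7 with 65.2% and miR-30a-5p at rank 11 with 39.9%.

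Longer 5p inserts had a lower ratio of siSrf1 to siSrf2. Summed over the 5p arms, the log2 ratio was -0.07 at 19 nt, -0.11 at 21 nt, -0.29 at 22 nt, -0.53 at 23 nt, -0.88 at 24 nt (-0.90 to -0.85) and -0.93 at 25 nt. The mix of arms in this sum changed with length, since miR-30a-5p had more reads than miR-30d-5p at 22 nt and fewer at 24 nt. For miR-30d-5p alone the log2 ratio was -0.07 at 21 nt and -0.995 at 24 nt. That of miR-30e-5p did not fall at each step, with -0.28 at 22 nt, -0.57 at 24 nt and -0.28 (-0.56 to 0.01) at 25 nt. The ratio was also lower for longer inserts outside the family, where all other arms without miR-1a-3p gave -0.15 at 21 nt, -0.38 at 22 nt, -0.54 at 23 nt, -0.73 at 24 nt and -0.89 at 25 nt. The 3p arms of miR-30, with 55.8% of inserts at 22 nt in siSrf1 and 57.8% in siSrf2, gave -0.21 at 21 nt, -0.31 at 22 nt, -0.06 at 23 nt and -0.47 (-0.81 to -0.14) at 24 nt, the last from 140 reads in siSrf1 and 169 in siSrf2. The part of insert length in the ratios of the 5p arms was not tested. These values by length are scaled to the miRNA total of all counted lengths. With inserts of 22 nt only, scaled to the miRNA reads of 22 nt, the family ratio was -0.37.

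For each arm with enough reads, the ratio of inserts of 24 and 25 nt was set against that of inserts of 18 to 22 nt. Long minus short was -0.85 for miR-30c-5p, -0.70 for miR-30d-5p, -0.55 for miR-30a-5p, -0.53 for miR-30e-3p and -0.37 for miR-30e-5p, and 0.10 for miR-30a-3p. The 6 miR-30 arms had a median of -0.54 with 5 below 0, and the 59 other arms a median of -0.28 with 56 below 0.

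**Figure D4:**
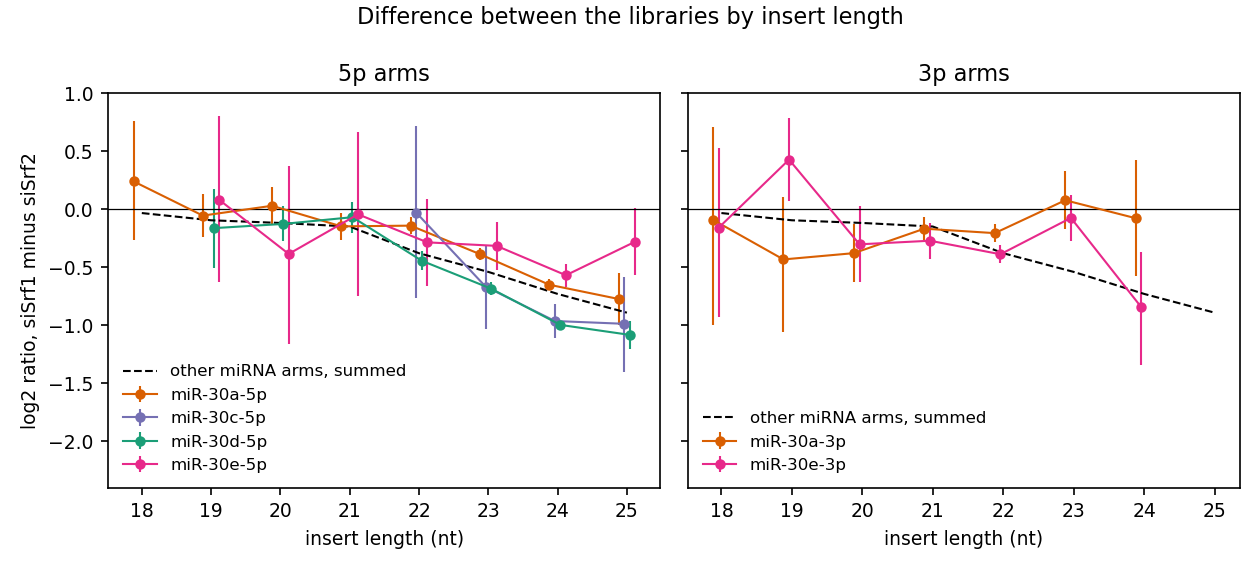
Log2 ratio of siSrf1 minus siSrf2 (vertical axis) by insert length in nt, for 5p arms (left) and 3p arms (right) of miR-30 at lengths with at least 50 reads, with exact binomial 95% intervals; the dashed line sums all other arms without miR-1a-3p. miR-30d-5p stands at -0.995 at 24 nt and -1.08 at 25 nt, below the other arms at -0.73 and -0.89, and miR-30a-3p stands at -0.08 at 24 nt.

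The 5' end, which fixes the seed, was the same in nearly all 5p reads. The main start was used by 98.8% of miR-30a-5p reads in siSrf1 and 98.8% in siSrf2, and by 99.5% of miR-30d-5p reads in siSrf1 and 99.6% in siSrf2. In miR-30e-5p 4.72% of reads began 1 nt later in siSrf1 and 4.32% in siSrf2. miR-30a-3p stood apart: 21.0% of its reads began 1 nt later in siSrf1 (19.8 to 22.1) and 22.8% in siSrf2 (21.6 to 24.02). A start 1 nt later moves the seed by 1 base. The same start was used by 1.91% of miR-30e-3p reads in siSrf1 and 2.03% in siSrf2, although both 3p arms share the seed and differ in RefSeq by G18A alone.

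The 3p arms of Mir30a and Mir30e also had the largest shares of untemplated 3' ends among the miR-30 arms with at least 500 reads. An untemplated end was found on 40.3% of miR-30a-3p reads in siSrf1 and 38.97% in siSrf2, and on 43.3% of miR-30e-3p reads in siSrf1 and 41.5% in siSrf2. Over the 5p arms it was 12.6% in siSrf1 and 12.01% in siSrf2. The leading forms are shown as sequenced, with untemplated bases in capitals.
miR-30a-3p, main start: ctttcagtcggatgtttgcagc
miR-30a-3p, main start with T: ctttcagtcggatgtttgcagT
miR-30a-3p, 1 nt later: tttcagtcggatgtttgcagc
miR-30a-3p, 1 nt later with T: tttcagtcggatgtttgcagT
miR-30e-3p, main start: ctttcagtcggatgtttacagc
miR-30e-3p, main start with T: ctttcagtcggatgtttacagT

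From the main start, the templated miR-30a-3p form had 1430 reads in siSrf1 and 1450 in siSrf2, and the form with T had 856 in siSrf1 and 875 in siSrf2. From the later start the form with T was the more frequent, with 403 reads in siSrf1 and 397 in siSrf2, beside 296 in siSrf1 and 349 in siSrf2 for the templated one. For miR-30e-3p the templated form had 1409 reads in siSrf1 and 1684 in siSrf2, and the form with T had 1065 in siSrf1 and 1118 in siSrf2. Among inserts that end at position 22, C22T (the hairpin base first) was thus carried by 36.1% of miR-30a-3p in siSrf1 and 36.7% in siSrf2 from the main start, and by 56.1% in siSrf1 and 52.2% in siSrf2 from the later start. In miR-30e-3p it was 42.3% in siSrf1 and 39.05% in siSrf2.

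A single untemplated T was found on 26.3% of all miR-30a-3p reads in siSrf1 and 27.1% in siSrf2, and on 27.5% of miR-30e-3p reads in siSrf1 and 26.5% in siSrf2. These arms stood at ranks 9 and 8 of 123, and the median of the 115 arms outside the family was 3.61% in siSrf1 and 3.38% in siSrf2. Over the 5p arms of miR-30 a single T was found on 2.52% of reads in siSrf1 and 2.42% in siSrf2, and a single A on 8.12% in siSrf1 and 7.54% in siSrf2. The A share of miR-30a-5p was 8.65% in siSrf1 (8.24 to 9.08) and 7.07% in siSrf2 (6.72 to 7.43), and that of miR-30a-3p was 8.55% in siSrf1 (7.78 to 9.36) and 6.79% in siSrf2 (6.11 to 7.54). That of miR-30d-5p, the most abundant arm, was 7.90% in siSrf1 and 7.92% in siSrf2. The A share was thus higher in siSrf1 for both arms of Mir30a, with intervals that do not overlap, and not for miR-30d-5p. This was not particular to Mir30a: miR-30e-3p had 11.2% in siSrf1 and 9.87% in siSrf2, with overlapping intervals. The share was higher in siSrf1 for 5 of 8 miR-30 arms and for 61 of 115 other arms. Outside the family the differences of siSrf1 minus siSrf2 ran from -3.80 to 3.62 percentage points.

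**Figure D5:**
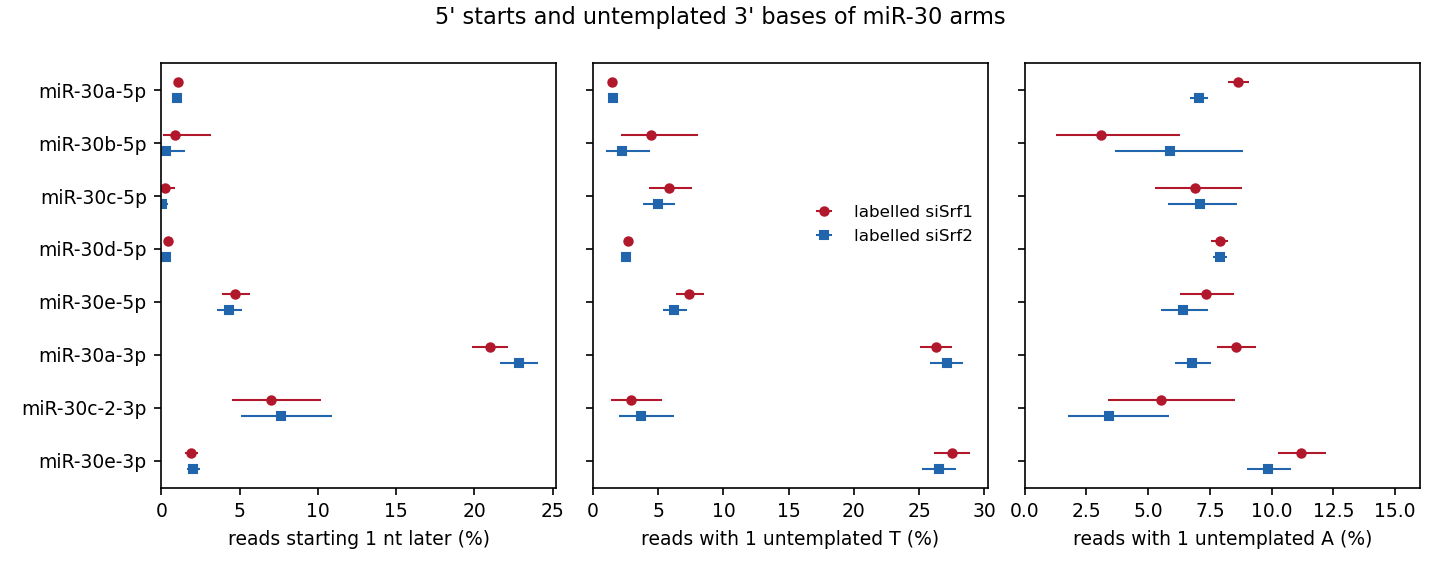
Share of reads (%) of each miR-30 arm with at least 500 reads that began 1 nt later (left), that carried 1 untemplated T (middle) or 1 untemplated A (right), in the libraries labelled siSrf1 (circles) and siSrf2 (squares), with Clopper-Pearson 95% intervals. miR-30a-3p stands apart on the left, at 21.0% in siSrf1 and 22.8% in siSrf2, and miR-30a-3p and miR-30e-3p in the middle, between 26.3% and 27.5%.

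Arms that differ by 1 base could gain reads from each other through sequencing errors. At the 4 like positions of the 24-nt miR-30a-5p insert, errors of the C13T kind had a median rate of 0.088% in siSrf1 and 0.083% in siSrf2. This rate would give miR-30e-5p 5 reads in siSrf1 and 6.5 in siSrf2, and the highest of the rates 19 in siSrf1 and 13 in siSrf2, where 1407 were counted in siSrf1 and 1850 in siSrf2. For miR-30e-3p the median rate would give 2 reads in siSrf1 and 1.5 in siSrf2 from miR-30a-3p, where 1409 were counted in siSrf1 and 1684 in siSrf2.

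Mir384 (chrX:102539621-102539708, minus strand), a miRNA outside the family whose 5p arm has the same seed, had 0 reads from either arm in siSrf1 and in siSrf2. A count of 0 allows up to 3 reads, or 0.567 RPM in siSrf1 and 0.652 in siSrf2. Its RefSeq sequence is shown for the shared seed.
miR-384-5p: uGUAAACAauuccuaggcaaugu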

How the data were processed

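Per the labels, libraries were prepared with an Illumina small RNA kit for the Genome Analyzer. The authors deposited, for each library, the read count of every distinct 36 nt sequence, with the adapter still present and without normalization, per the file headers. Aligner, genome build and any filter of reads: not given in the sources used here. The members and lists were chosen with earlier results of these data known.

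The adapter was found by its first 8 nt, or for at least 4 nt at the read end. Inserts of 15 nt or longer made up 59.4% of reads in siSrf1 and 57.2% in siSrf2. Inserts of 18 to 25 nt (7748874 in siSrf1 and 7013026 in siSrf2) were matched to 1137 hairpins, 1005 from RefSeq (GRCm38.p6) and 132 from GENCODE on NCBIM37, exactly or with 1 to 2 untemplated 3' bases after at least 16 matching nt. 68.2% of these inserts in siSrf1 and 65.6% in siSrf2 were counted as miRNA. An insert belonged to the arm it overlapped by at least 12 nt, and an insert with several fitting miRNAs was divided equally among them. Reads were scaled to the miRNA total, with a pseudocount of 0.5 reads in log2 ratios. Arms needed 50 reads over both libraries, and 500 for isoforms. Intervals of ratios are exact binomial, conditional on the sum of both counts, and those of a difference of 2 log2 ratios use a normal approximation to the counting error. Shares carry Clopper-Pearson intervals. Without molecular identifiers, reads need not be independent molecules, so intervals cover counting error only.

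The text names all miR-30 arms, both arms of Mir384, the most abundant miRNA and miRNAs of the cell type marker lists. Alternatives were TMM (edgeR 4.0.16) and median-of-ratios (DESeq2 1.42.0) factors, other totals, lengths, adapter matches, mismatches, shared inserts, read minimums and pseudocounts. Where an alternative changed the inserts counted, reads were scaled to the miRNA total counted the same way. Inserts of 16 to 28 nt and of 22 nt only were added after the data were seen. The steps were tested on simulated data (Python 3.11.15, numpy 2.4.6, scipy 1.17.1, pandas 2.3.3, R 4.3.3).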

Additional observations from a re-analysis of the deposited data

Results flagged for a closer look

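Reads of the family also occurred outside the inserts counted, and the counts given here lie above the 3 reads that a count of 0 allows, except where said. Reads without an adapter match that began with the first 18 nt of a miR-30 arm numbered 7793 in siSrf1 and 9440 in siSrf2. Inserts of 26 to 28 nt numbered 560 in siSrf1 and 1137 in siSrf2. Inserts of 16 or 17 nt numbered 128 in siSrf1 and 125 in siSrf2. Inserts in the hairpins outside both arms numbered 5 in siSrf1 and 2 in siSrf2, and the count in siSrf2 lies under those 3 reads. No antisense insert was found in either library.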

How the results depend on the processing

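The family total was lower in siSrf1 under every alternative tried. Its log2 ratio of -0.60 was -0.11 under TMM scaling, -0.049 under median-of-ratios scaling, -0.23 without miR-1a-3p in the total and -0.49 with the total of all inserts of 15 nt or longer. It was -0.65 with exact matches only, -0.58 with 1 mismatch allowed, -0.62 with inserts near the most frequent one only, and -0.37 with 22 nt only. The count of miR-30 arms called was 0 in both directions, except for 1 higher in siSrf2 with 12 nt of adapter, which was miR-30b-3p at -1.04 (-1.51 to -0.59). miR-30a-3p, miR-30c-2-3p, miR-30d-3p and miR-30e-3p turned above 0 under TMM and median-of-ratios factors and without miR-1a-3p, and miR-30a-5p and miR-30e-5p under both sets of factors. Of 148 values for single arms under the alternatives, 105 stayed within their counting interval and 43 moved. With exact matches only, the 5p share of Mir30e was 44.9% in siSrf1 and 47.5% in siSrf2. Over all measured arms, the 63 called as higher in siSrf2 numbered 36 under TMM and 34 under median-of-ratios scaling, and 18 of 123 with a minimum of 500 reads. No paired analysis was possible because there was 1 library per group. Limits are the missing replicates and the titles that disagree with the siRNA entries. Depth limits miR-30d-3p, miR-30c-1-3p and miR-30b-3p.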

Other observations

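GC content of the most frequent insert ran from 40.9% for miR-30b-5p to 54.5% for miR-30c-1-3p. Across the 11 miR-30 arms Spearman's rho of GC with the log2 ratio was 0.20, and across all 257 measured arms it was -0.25, given as descriptions since all arms share the same 2 libraries.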
